A study of Mus musculus with 12 samples.

Results

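Myelin and oligodendrocyte lineage genes were followed in mice that lack the fms-intronic regulatory element (FIRE), an enhancer in the *Csf1r* gene, which encodes the receptor for macrophage colony-stimulating factor. The set holds 30 genes chosen by name, 6 of oligodendrocyte precursors, 5 of committed cells that have begun to differentiate and 19 of mature, myelin-forming cells. A gene was read from the transcript cluster, the group of probes that share 1 signal value, whose annotation gives exactly its symbol, and 28 of the 30 had such a cluster, among 18820 symbols on 21218 clusters. The only cluster for *Mbp*, which encodes myelin basic protein, also carries *Ctbp2*, and the only one for *Nkx6-2* also carries *Inpp5a*, so neither gene has a value here. Each of the 28 had 1 cluster of its own symbol. *Gpr17* and *Ermn* also appear on a cluster shared with another gene, *Lims2* and *Galnt5*, which was not used.

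Whole-tissue RNA from the hippocampus and from pieces labelled as Peyer's patch and ileum, called ileum here, was hybridised to 12 Affymetrix Mouse Gene ST arrays. The FIRE -/- mice carried the deletion in every cell on both alleles and, per the study, descend from 1 male founder, and the FIRE +/+ mice kept the enhancer. All mice were of the labelled strain C57BL/6J/CBA, aged 6 weeks, perfused with saline and otherwise untreated, with 3 arrays per genotype and tissue. In hippocampus the FIRE -/- arrays are A09, B09 and H07 and the FIRE +/+ arrays E07, F07 and G07, and per-array values are given in this order. In ileum they are F09, G09 and H09 for FIRE -/- and C09, D09 and E09 for FIRE +/+. In both tissues the labels give 1 male and 2 females for FIRE -/- and 2 males and 1 female for FIRE +/+. The sources used here do not state whether the same mice gave both tissues.

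Oligodendrocytes wrap axons in myelin, a stack of lipid-rich membrane that speeds conduction. They arise from precursors that carry the PDGF receptor and the proteoglycan NG2, stop dividing under the control of OLIG, SOX10 and NKX factors, and switch on myelin genes through MYRF. The genes described here cover that path, and microglia, the brain macrophages that depend on CSF1R, are known to interact with each of its stages.

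*Csf1r* was at 3.58, 3.69 and 3.65 (log2 units as the authors deposited them, in which 1 unit is a doubling of signal) in FIRE -/- hippocampus, against 8.34, 8.31 and 8.15 in FIRE +/+ hippocampus, a change of -4.63 log2 units (limma adjusted p = 8.77e-07). The FIRE -/- values lay below the medians of those arrays, 4.30 to 4.37, where a value may be background, so the size of this change is a lower bound. The mean level of 12 neuron genes ran from 10.32 to 10.48 in hippocampus and from 4.65 to 5.02 in ileum, and that of 7 gut epithelium genes from 3.55 to 4.16 in hippocampus and from 11.23 to 11.68 in ileum. The Peyer's patch of the label was not seen on every ileum array. B cell genes, 8 in number, averaged 7.64 on F09 and 7.52 on D09 but only between 3.31 and 3.68 on the other 4 ileum arrays, near the 2.75 to 3.05 of hippocampus. All 13 measured microglial genes were lower on every FIRE -/- than on every FIRE +/+ hippocampus array, and 12 of them passed the test, the exception being *Aif1* at -1.18 (limma adjusted p = 0.234). Array B09 is labelled female, while its *Xist* value of 2.44 and its *Eif2s3y* value of 6.18 lie with those of the male arrays. The mean level of 10 choroid plexus genes was 4.83 on F07 and between 6.86 and 7.97 on the other hippocampus arrays. Levels in bulk tissue combine the number of cells with the RNA in each, and fewer cells of a type and less RNA per cell cannot be told apart. Precision is limited by the 3 arrays in each group, and an exact permutation test of 3 against 3 cannot give a two-sided p under 0.1.

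No member passed the test for a genotype difference in hippocampus. The test was limma's moderated linear model, fitted to every cluster at once. Over all clusters, 95 were lower in FIRE -/- (0.448% of those tested) and 0 were higher (0%) at a limma p under 0.05 after Benjamini-Hochberg adjustment. Among the members the log2 fold change, FIRE -/- minus FIRE +/+, ran from -0.28 for *Olig2* to 0.21 for *Cldn11*, with a median of 0.0252 and standard errors between 0.08 and 0.22. Their limma adjusted p-values lay between 0.871 and 0.994. For 26 of the 28 the 95% confidence interval stayed within 0.5 log2 units of no change. The exceptions were *Olig2*, whose interval reached -0.51, and *Aspa*, whose interval ran from -0.58 to 0.43. At an unadjusted limma p under 0.05, 1 member was lower in FIRE -/- and 0 were higher, while 2.95% of all clusters were lower and 1.79% higher at that level. The arrays of the genotypes did not overlap for 4 members, all lower in FIRE -/-, namely *Pdgfra*, *Olig2*, *Gpr37* and *Qdpr*. Among all clusters 5.2% were lower and 4.46% higher in this sense.

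**Figure D1:**
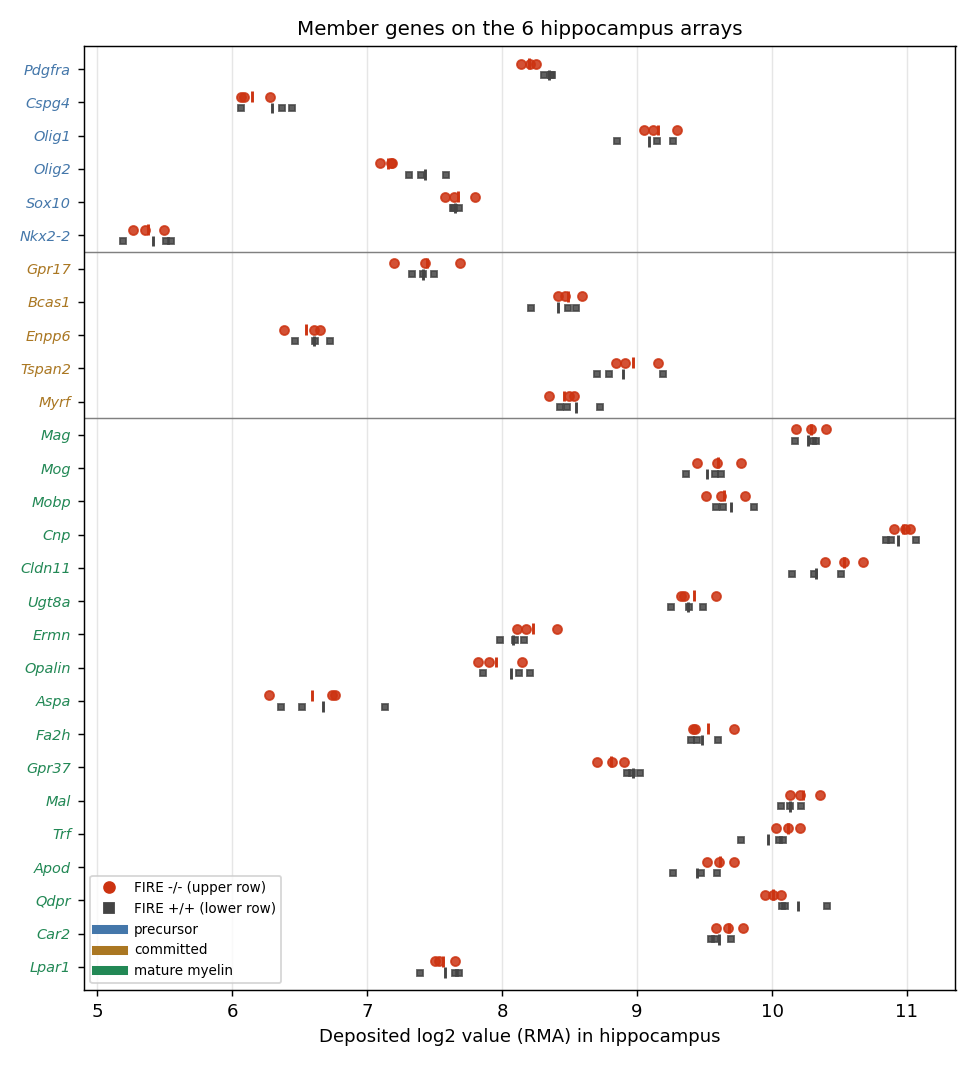
Deposited log2 value (horizontal axis) of the 28 measured members on the 6 hippocampus arrays, with FIRE -/- as red circles in the upper row and FIRE +/+ as grey squares in the lower row of each gene. Vertical ticks are group means of 3 arrays, and the genotypes stand apart only for *Pdgfra*, *Olig2*, *Gpr37* and *Qdpr*. Levels of different genes come from different probes and are not to be set against each other.

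Among the 6 precursor genes, 4 had a log2 fold change below 0 and 2 above, with a median of -0.0947, where the median over all 21218 clusters was 0.0077. *Olig2*, a transcription factor that specifies the oligodendrocyte lineage, was at 7.17, 7.10 and 7.18 in FIRE -/- and at 7.58, 7.31 and 7.40 in FIRE +/+ hippocampus. All 3 FIRE -/- arrays lay below all 3 FIRE +/+ arrays. It had a change of -0.28 log2 units (standard error, SE, 0.10), with a limma p of 0.0217 before adjustment and an adjusted p of 0.871. *Pdgfra*, the receptor through which PDGF drives precursor division, was at 8.25, 8.14 and 8.21 in FIRE -/- and at 8.36, 8.37 and 8.31 in FIRE +/+ hippocampus. These groups stood apart as well, by a change of -0.15 log2 units (SE 0.08, limma adjusted p = 0.992).

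*Cspg4*, which encodes the NG2 proteoglycan, was at 6.28, 6.07 and 6.09 in FIRE -/- against 6.37, 6.06 and 6.44 in FIRE +/+ hippocampus. The lowest of the 6 values, 6.06, belonged to the FIRE +/+ array F07, so the groups overlapped. *Olig1*, the partner of *Olig2* in the lineage, was at 9.12, 9.30 and 9.05 in FIRE -/- against 9.15, 9.27 and 8.85 in FIRE +/+ hippocampus, and its log2 fold change was 0.07 (SE 0.13). *Sox10*, a factor kept from precursor to mature cell, was at 7.57, 7.80 and 7.64 in FIRE -/- against 7.63, 7.68 and 7.64 in FIRE +/+ hippocampus. The FIRE +/+ values of *Sox10* fell inside the range of the FIRE -/- values. *Nkx2-2*, which acts at the step towards differentiation, was at 5.26, 5.50 and 5.36 in FIRE -/- against 5.19, 5.54 and 5.51 in FIRE +/+ hippocampus, with a change of -0.04 log2 units (SE 0.12).

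The spread of the precursor genes was summarised per array by the median deviation of the 6 genes from their own means over the 6 hippocampus arrays. It was -0.05, -0.02 and -0.07 in FIRE -/- and 0.06, 0.06 and 0.07 in FIRE +/+ hippocampus. A second list of precursor genes, 14 measured of 16, held 3 with a log2 fold change above 0 and 11 below, with a median of -0.0750. None of the 14 passed the test. The 2 with the largest change were *Matn4*, an extracellular matrix protein gene, at -0.33 (limma adjusted p = 0.992) and *Pcdh15*, a protocadherin gene, at -0.29 (limma adjusted p = 0.894). On single arrays the median deviation of this list was -0.03, -0.07 and -0.05 in FIRE -/- and 0.08, -0.01 and 0.16 in FIRE +/+ hippocampus. Both lists were read from the same 6 arrays. *Pdgfra* is also made by meningeal fibroblasts and *Cspg4* by mural cells of vessels. Of 10 fibroblast genes 9 had a log2 fold change above 0, with mean levels from 6.37 to 6.54 in FIRE -/- and from 6.08 to 6.32 in FIRE +/+ hippocampus, and those of 6 mural genes ran from 7.09 to 7.17 in FIRE -/- and from 7.03 to 7.11 in FIRE +/+ hippocampus. The largest changes were those of the fibroblast genes *Slc6a13* at 0.50 (limma adjusted p = 0.387) and *Aldh1a2* at 0.46 (limma adjusted p = 0.402), and of the mural genes *Anpep* at 0.45 (limma adjusted p = 0.657) and *Pdgfrb* at -0.16 (limma adjusted p = 0.992). Their part in the precursor values was not tested.

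**Figure D2:**
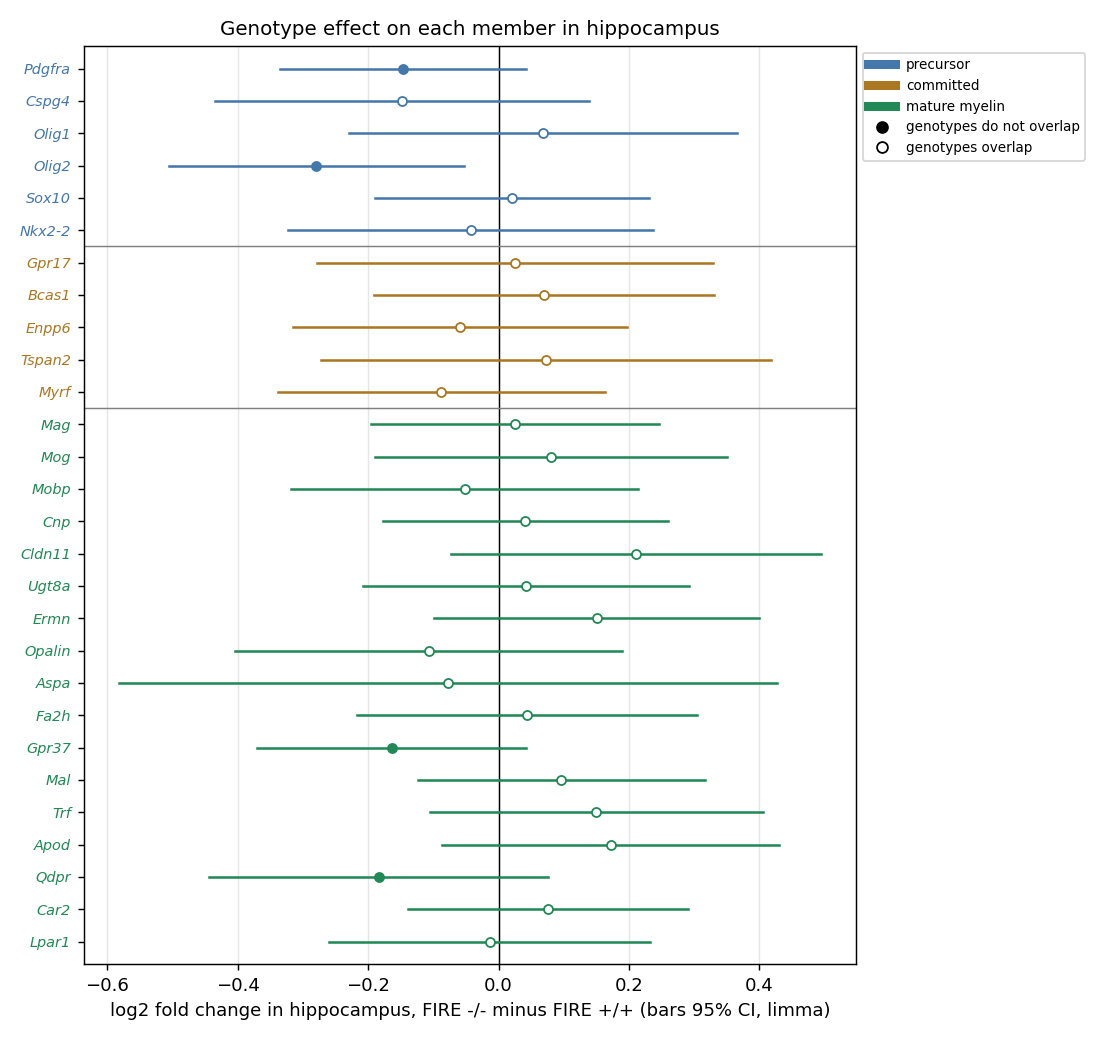
Genotype effect in hippocampus for each member, as log2 fold change of FIRE -/- minus FIRE +/+ (horizontal axis) with 95% confidence intervals from limma (n = 3 arrays per genotype). Filled points mark the 4 members whose genotypes do not overlap, and 27 of the 28 intervals cross 0, the exception being *Olig2*, which did not pass after adjustment.

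The 5 genes of committed cells showed 3 log2 fold changes above 0 and 2 below, with a median of 0.0257, and the genotypes overlapped for each of them. *Gpr17*, a receptor gene switched on briefly in cells leaving the precursor state, was at 7.20, 7.69 and 7.43 in FIRE -/- against 7.42, 7.49 and 7.34 in FIRE +/+ hippocampus. Both its lowest and its highest value belonged to FIRE -/- arrays, A09 and B09. *Bcas1*, a marker of newly forming myelin, was at 8.46, 8.59 and 8.41 in FIRE -/- against 8.49, 8.55 and 8.22 in FIRE +/+ hippocampus. *Enpp6*, a choline phosphodiesterase gene used to mark newly formed oligodendrocytes, was at 6.65, 6.60 and 6.38 in FIRE -/- against 6.73, 6.62 and 6.47 in FIRE +/+ hippocampus. The lowest value of *Bcas1* was that of the FIRE +/+ array G07, and the lowest of *Enpp6* that of the FIRE -/- array H07. *Tspan2*, a tetraspanin gene, was at 8.84, 9.16 and 8.91 in FIRE -/- against 8.70, 9.19 and 8.79 in FIRE +/+ hippocampus, so that B09 and F07, 1 array of each genotype, lay above the other 4. *Myrf*, the factor that turns on the myelin genes, was at 8.53, 8.49 and 8.35 in FIRE -/- against 8.43, 8.48 and 8.72 in FIRE +/+ hippocampus, a change of -0.09 log2 units (SE 0.11, limma adjusted p = 0.992). The other 4 committed genes had log2 fold changes from -0.06 to 0.07.

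A further list of committed-stage genes, 9 measured of 10, had a median log2 fold change of -0.0413, with 4 above 0 and none past the test. Its 2 largest changes were those of *Zfp488*, a zinc finger gene of the oligodendrocyte lineage, at -0.32 (standard error 0.11, limma adjusted p = 0.847), and of *Itpr2*, a calcium release channel gene, at -0.23 (standard error 0.09, limma adjusted p = 0.992). *Zfp488* was at 5.58, 5.48 and 5.53 in FIRE -/- against 5.83, 5.68 and 6.03 in FIRE +/+ hippocampus. For both genes the genotypes did not overlap, and both were lower in FIRE -/-. They were the only 2 of the 9 without overlap, where 5.2% of all clusters were lower in this sense. The second precursor list held 3 such genes of 14, and the wider list of mature genes described below 2 of 23.

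Of the 17 measured genes of mature myelin 11 had a log2 fold change above 0 and 6 below, with a median of 0.0425. *Mag*, which encodes a glycoprotein on the inner face of the sheath that binds the axon, was at 10.29, 10.40 and 10.18 in FIRE -/- against 10.17, 10.32 and 10.30 in FIRE +/+ hippocampus. *Mog*, whose protein lies on the outermost myelin layer, was at 9.59, 9.77 and 9.45 in FIRE -/- against 9.36, 9.58 and 9.62 in FIRE +/+ hippocampus. The ranges of both genes overlapped widely. *Mobp*, a gene for a protein of the compact myelin, was at 9.62, 9.80 and 9.51 in FIRE -/- against 9.59, 9.64 and 9.86 in FIRE +/+ hippocampus. *Cnp*, which encodes an enzyme of the uncompacted cytoplasmic channels of myelin, was at 10.99, 11.02 and 10.91 in FIRE -/- against 10.84, 10.88 and 11.07 in FIRE +/+ hippocampus. For *Mobp* and *Cnp* alike the highest value was that of the FIRE +/+ array G07. The log2 fold changes of these 4 genes lay between -0.05 and 0.08, each smaller than its standard error.

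*Cldn11*, which encodes the tight junction protein of the myelin sheath, was at 10.53, 10.67 and 10.39 in FIRE -/- against 10.31, 10.51 and 10.14 in FIRE +/+ hippocampus. It had the highest log2 fold change of the members, 0.21 (standard error 0.12, 95% confidence interval -0.07 to 0.49, limma adjusted p = 0.992), and its groups overlapped through H07 and F07. *Mal*, a proteolipid gene of compact myelin, was at 10.21, 10.36 and 10.13 in FIRE -/- against 10.06, 10.21 and 10.13 in FIRE +/+ hippocampus, a log2 fold change of 0.10. *Gpr37*, a receptor gene of differentiating oligodendrocytes, was at 8.81, 8.90 and 8.70 in FIRE -/- against 8.96, 8.93 and 9.03 in FIRE +/+ hippocampus. *Qdpr*, which encodes an enzyme that recycles tetrahydrobiopterin, was at 10.07, 10.01 and 9.94 in FIRE -/- against 10.09, 10.07 and 10.41 in FIRE +/+ hippocampus. Both were lower on every FIRE -/- array, *Qdpr* by a margin under 0.01 between A09 and F07, and their log2 fold changes were -0.16 for *Gpr37* (standard error 0.09) and -0.18 for *Qdpr* (standard error 0.11), neither past the test (limma adjusted p = 0.992 for each). The change of *Qdpr* rested in large part on the value of 10.41 on G07, and without that array it was -0.08.

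The remaining 9 mature genes overlapped between genotypes and had log2 fold changes from -0.11 for *Opalin* to 0.17 for *Apod*. They comprise the myelin lipid enzymes *Ugt8a* at 0.04 and *Fa2h* at 0.04, the cytoskeletal gene *Ermn* at 0.15, the membrane protein gene *Opalin*, the lysophosphatidic acid receptor gene *Lpar1* at -0.01, and *Aspa*, which encodes the enzyme that splits N-acetylaspartate, at -0.08. *Trf* (transferrin), *Car2* (carbonic anhydrase 2) and *Apod* (apolipoprotein D) had log2 fold changes of 0.15, 0.08 and 0.17. *Aspa* had the widest spread of the 28, with 6.76, 6.74 and 6.27 in FIRE -/- against 6.52, 7.13 and 6.36 in FIRE +/+ hippocampus, and without F07 its log2 fold change was 0.15. *Trf* and *Car2* are also made in the choroid plexus, and F07, the array with the lowest level of choroid plexus genes, had the lowest value of both, 9.77 for *Trf* and 9.55 for *Car2*. B09, with the highest choroid plexus mean, was highest for both. On H07, with a choroid plexus mean of 6.86, *Trf* was at 10.12. That was above A09 at 10.03 and E07 at 10.08, whose choroid plexus means were 7.70 and 7.81. For *Car2*, G07 at 9.575 and H07 at 9.59 lay near F07. Without F07 the log2 fold change of *Trf* was 0.05. The part of the choroid plexus in the values of *Trf* and *Car2* was not tested. *Apod* and *Lpar1* are also made by meningeal fibroblasts, whose genes are described with the precursors above, and their part was not tested.

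**Figure D3:**
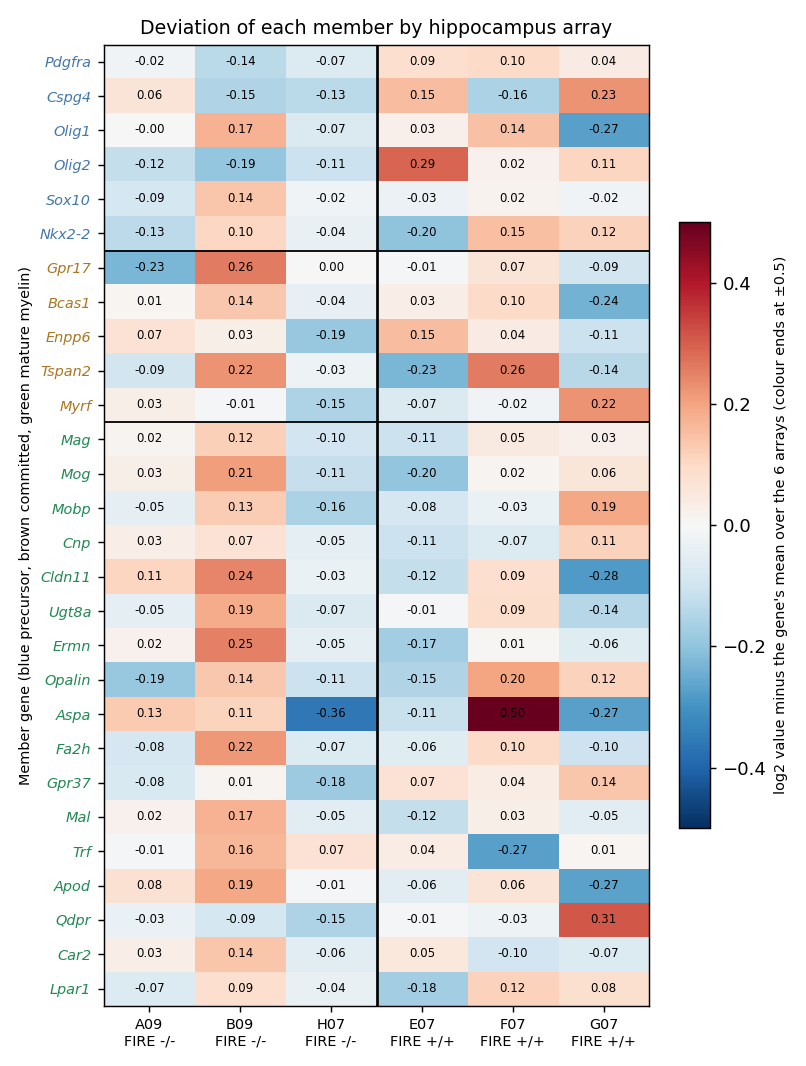
Deviation of each member from its own mean over the 6 hippocampus arrays, in log2 units, with the FIRE -/- arrays A09, B09 and H07 left of the line and the FIRE +/+ arrays E07, F07 and G07 right of it. Red cells lie above and blue cells below the mean of the gene, and the column of B09 is the highest of the 6 for 14 of the 28 members.

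The mature genes varied from array to array within each genotype. The median deviation of the 17 genes from their own means was 0.02, 0.14 and -0.07 in FIRE -/- and -0.11, 0.04 and 0.01 in FIRE +/+ hippocampus. B09 was the highest of the 6 arrays for 10 of these 17 genes, and E07 the lowest for 6. For the committed genes the median deviation was 0.01, 0.14 and -0.04 in FIRE -/- and -0.01, 0.07 and -0.11 in FIRE +/+ hippocampus. By this measure B09 and then F07 were highest at both stages, while the lowest array was E07 for the mature and G07 for the committed genes. Without B09 the median log2 fold change was -0.0286 for the mature genes and -0.0877 for the committed genes, so that both medians changed sign. The precursor median was -0.1072 without B09. The number that ends the array code is 07 on the 4 arrays H07, E07, F07 and G07 and 09 on A09 and B09, and among the 4 arrays with 07, of which H07 alone is FIRE -/-, the median log2 fold change was -0.0463 for the mature, -0.0066 for the committed and -0.0999 for the precursor genes.

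A wider list of mature oligodendrocyte genes, 23 measured of 27, had 11 log2 fold changes above 0 and 12 below, a median of -0.0088 and none past the test. The largest were those of *Nipal4*, a magnesium transporter gene, at -0.25 (standard error 0.14) and of *Gsn* (gelsolin) at 0.23 (standard error 0.12). Genes that supply the lipids of myelin were more often above 0 than below. Of 14 measured cholesterol synthesis genes 9 were above 0, with a median of 0.0511, led by *Idi1* at 0.31 (limma adjusted p = 0.809) and *Hmgcs1* at 0.17 (limma adjusted p = 0.992). Of 10 sphingolipid genes 7 were above 0, with a median of 0.0354, led by *Degs1* and *Cers6*, both at 0.14. No gene of either list passed the test. Of the cholesterol synthesis genes 4 were higher on every FIRE -/- array, and of the sphingolipid genes 0, where 4.46% of all clusters were. Genes of the axonal node and paranode, where sheath and axon meet, had 5 of 9 above 0 and a median of 0.0158, with *Sptbn4* (beta-IV spectrin) at -0.31 (limma adjusted p = 0.774) and the sodium channel gene *Scn8a* at -0.17. As comparison, 11 astrocyte genes had a median of 0.0202 and 12 neuron genes one of 0.0279, each with none past the test. The largest changes were those of *Gfap* at 0.56 (limma adjusted p = 0.142) and *Slc1a3* at 0.13 among the astrocyte genes, and of *Neurod6* at 0.16 and *Stmn2* at 0.09 among the neuron genes.

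**Figure D4:**
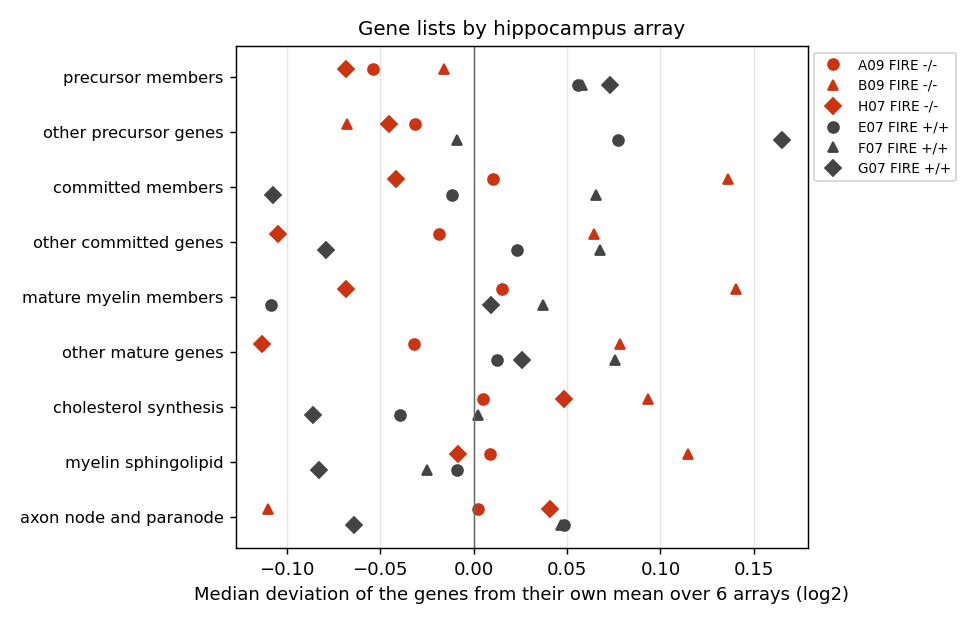
Median deviation of the genes of each list from their own means over the 6 hippocampus arrays (horizontal axis, log2 units), with FIRE -/- arrays in red above and FIRE +/+ arrays in grey below. The 3 FIRE -/- arrays lie left of the 3 FIRE +/+ arrays for the precursor members and the other precursor genes. They lie right of them, by narrow margins, for cholesterol synthesis (lowest FIRE -/- 0.005, highest FIRE +/+ 0.0024) and sphingolipid genes (-0.0081 and -0.0089). In the rows of committed, mature and axon node genes the genotypes overlap.

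Among genes whose products act on precursors as growth signals, 13 measured of 14, the only one past the test was *Tgfb1*, a cytokine gene expressed in brain mostly by microglia. It was at 5.16, 5.08 and 5.18 in FIRE -/- against 5.94, 5.90 and 5.87 in FIRE +/+ hippocampus, a change of -0.77 log2 units (SE 0.08, limma adjusted p = 0.00526). The fall came with that of the microglial genes on the same arrays, and its relation to them was not tested. The study, which used other software, lists *Tgfb1* and *Igf1* among trophic factor genes unaffected in this hippocampus. For *Tgfb1* the result here differs from that statement. Whether *Tgfb1* passes under the alternative settings described below was not examined. Of the 13 genes 4 had a log2 fold change above 0 and 9 below, with a median of -0.0648. For 3 of them, *Tgfb1* included, the genotypes did not overlap, all lower in FIRE -/-, beside 5.2% of all clusters. Their median deviation was 0.01, -0.03 and -0.04 in FIRE -/- and 0.07, 0.06 and 0.02 in FIRE +/+ hippocampus. The PDGF ligand genes *Pdgfa* and *Pdgfc* had log2 fold changes of -0.07 and -0.03, and the insulin-like growth factor gene *Igf1* one of 0.10. *Igf1r*, its receptor gene, was at -0.14 (limma adjusted p = 0.992).

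The ileum, which has glia of its own but no oligodendrocytes, gave the level at which the members' probes read in a tissue without myelin of the central type. Of the 28 members 24 were higher and 2 lower in hippocampus than in ileum over the 12 arrays, and 2 did not pass, while 32.2% of all clusters were higher and 36.1% lower (limma, adjusted p under 0.05). The median difference, hippocampus minus ileum, was 5.11 for the mature, 2.53 for the committed and 1.92 for the precursor genes, against -0.0513 over all clusters. *Mag* averaged 10.28 in hippocampus and 3.37 in ileum, a difference of at least 6.91 log2 units. *Cldn11* was higher in hippocampus by at least 6.37 log2 units, *Ugt8a* by at least 6.34 and *Mog* by at least 6.07. These are lower bounds, since *Mag*, *Ugt8a* and *Mog* read below the median of the array on all 6 ileum arrays and *Cldn11* on 5 of them, where a value may be background. In all, 11 of the 24 read below that median on every ileum array. For each of the 24 genes every hippocampus array lay above every ileum array, and the counts of 24 and 2 were the same without D09 and F09.

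The other 4 members were not higher in hippocampus. *Aspa* averaged 6.63 in hippocampus and 8.84 in ileum, 4.63-fold lower in hippocampus (limma adjusted p = 1.44e-07), and all hippocampus arrays, from 6.27 to 7.13, lay below all ileum arrays, from 8.53 to 9.33. *Lpar1* averaged 7.57 in hippocampus and 8.04 in ileum, a difference of -0.47 (limma adjusted p = 0.000163). *Pdgfra* differed by -0.07 (95% confidence interval -0.31 to 0.18, limma adjusted p = 0.617) and *Cspg4* by 0.08 (95% confidence interval -0.16 to 0.32, limma adjusted p = 0.556), both genes that stromal cells of the gut also express. Among the genes that were higher in hippocampus the smallest differences were those of *Qdpr* at 0.50, *Myrf* at 0.52 and *Bcas1* at 0.60.

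**Figure D5:**
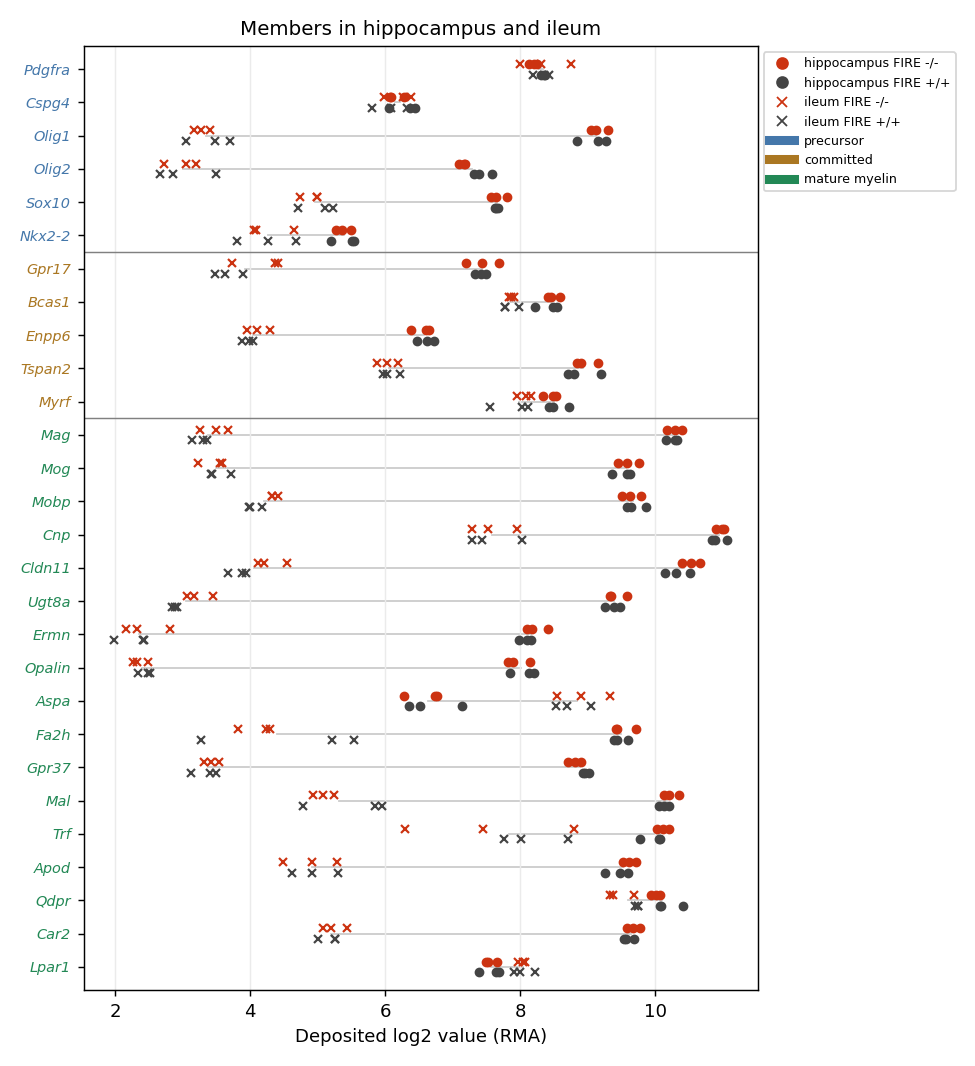
Deposited log2 value (horizontal axis) of each member on the 6 hippocampus arrays (circles) and the 6 ileum arrays (crosses), FIRE -/- in red above FIRE +/+ in grey, with a line joining the tissue means. *Mag* reads 10.28 in hippocampus and 3.37 in ileum on average, while *Aspa* and *Lpar1* lie lower in hippocampus and *Pdgfra* and *Cspg4* overlap.

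The stretches before the gene starts are shown for *Olig2*, the precursor gene with the smallest p for genotype, for *Mog* and *Mobp*, which were among the genes far higher in hippocampus, and for *Aspa*, the gene that was lower there by the most. The RefSeq promoter table (GRCm38.p6) held 21 of the 30 members, and the 250 bases before each start are given 5′ to 3′ on the gene's strand. Capitals mark matches, on either strand, to ACAAAG or ACAATG (SOX type), CAGCTG (an E-box of the type OLIG2 binds) and CTGGCAC or CTGGTAC (MYRF type). *Olig2* lies at chr16:91225300-91225549 on the plus strand, *Mog* at chr17:37023399-37023648 on the minus strand, *Mobp* at chr9:120149492-120149741 on the plus strand and *Aspa* at chr11:73324638-73324887 on the minus strand.
*Olig2*: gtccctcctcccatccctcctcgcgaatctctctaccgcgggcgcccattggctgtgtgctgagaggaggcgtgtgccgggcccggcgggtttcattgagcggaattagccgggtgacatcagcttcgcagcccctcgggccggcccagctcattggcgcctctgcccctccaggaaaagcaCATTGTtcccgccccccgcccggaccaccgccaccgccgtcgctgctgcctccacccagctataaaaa
*Mog*: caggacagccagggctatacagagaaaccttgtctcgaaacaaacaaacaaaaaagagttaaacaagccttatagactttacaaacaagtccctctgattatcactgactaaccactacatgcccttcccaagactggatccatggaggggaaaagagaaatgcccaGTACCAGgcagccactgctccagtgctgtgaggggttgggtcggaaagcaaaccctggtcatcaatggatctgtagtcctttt
*Mobp*: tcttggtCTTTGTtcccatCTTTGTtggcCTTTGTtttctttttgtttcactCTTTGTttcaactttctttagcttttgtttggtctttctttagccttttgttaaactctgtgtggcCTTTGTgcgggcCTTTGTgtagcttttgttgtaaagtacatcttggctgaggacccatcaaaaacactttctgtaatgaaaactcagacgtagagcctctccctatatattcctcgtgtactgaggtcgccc
*Aspa*: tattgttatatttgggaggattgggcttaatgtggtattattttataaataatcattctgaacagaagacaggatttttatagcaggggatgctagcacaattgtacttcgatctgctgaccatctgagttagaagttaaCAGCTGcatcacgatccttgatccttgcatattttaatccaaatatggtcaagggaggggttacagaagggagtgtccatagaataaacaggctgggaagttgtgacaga

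*Mobp* held 6 SOX-type matches, *Olig2* held 1, *Mog* held 1 MYRF-type match and *Aspa* held 1 E-box. Some members have several starts, which gave 26 windows for the 21 genes, and windows of 1 gene can overlap. A SOX-type match was found in 12 of the 26 windows (46.2%) and in 25.2% of the 32851 windows in the table, a MYRF-type match in 5 (19.2%) and in 5.93%, and the E-box in 1 (3.85%) and in 13%. These matches describe letters in a short window and show no binding.

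In ileum no member passed the test for a genotype difference (limma, 0 of 28 at an adjusted p under 0.05, beside 0% of all clusters), and none did without D09 and F09. At an unadjusted limma p under 0.05 there were 4 members, all higher in FIRE -/-, where 3.39% of all clusters reached that level in either direction. *Cldn11* was at 4.21, 4.54 and 4.11 in FIRE -/- against 3.88, 3.94 and 3.67 in FIRE +/+ ileum, a change of 0.46 log2 units (SE 0.15). *Ugt8a* was at 3.17, 3.44 and 3.06 in FIRE -/- against 2.92, 2.85 and 2.89 in FIRE +/+ ileum, and *Mobp* was between 4.32 and 4.42 in FIRE -/- against 3.99 to 4.17 in FIRE +/+ ileum. For these 3 genes the genotypes did not overlap, at values far below those of the same probes in hippocampus, and below the median of the array on all 6 ileum arrays for *Ugt8a* and *Mobp* and on 5 for *Cldn11*. *Gpr17*, the fourth, had a change of 0.50 log2 units (SE 0.21) with overlapping groups, and it too read below that median on all 6 ileum arrays. The adjusted p of every member in ileum was 0.999.

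*Qdpr* was the only member whose genotypes stood apart in both tissues, with 9.38, 9.33 and 9.69 in FIRE -/- against 9.71, 9.75 and 9.75 in FIRE +/+ ileum, a change of -0.27 log2 units (SE 0.13, limma adjusted p = 0.999). Counting both directions, 4 members did not overlap in ileum, beside 8.04% of all clusters, and *Qdpr* alone of the 28 was lower on every FIRE -/- array, beside 4.52%. The widest spread in ileum was that of *Trf*, which ran from 6.30 on F09 to 8.79 on H09 in FIRE -/- and from 7.76 to 8.70 in FIRE +/+. F09 and D09 are the arrays with B cell genes described above, and the part of the unequal Peyer's patch in these values was not tested. The difference of the genotype effect between tissues passed the test for 0 of 28 members, beside 0.0895% of all clusters (limma). At an unadjusted limma p under 0.05 there was 1 member of 28, *Mobp*. Of all 21218 clusters, 371 reached that level with a difference above 0 and 523 with a difference below 0. The effect on *Mobp* was -0.05 in hippocampus and 0.30 in ileum, where it read below the median of the array on all 6 arrays.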

How the data were processed

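The authors summarised the array images by RMA (version not given in the sources used here), and these deposited log2 values entered the tests unscaled. Array medians ran from 4.29 to 4.46, and values from 0.50 to 13.0. Of 35556 clusters, the 21218 with a single symbol in the platform annotation were tested, while 1881 that carry more than 1 symbol and 12457 without a symbol were not. A gene with several clusters was read from that of highest mean.

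Genotypes were compared in each tissue with limma 3.58.1 in R 4.3.3 (lmFit, eBayes), FIRE -/- minus FIRE +/+, with Benjamini-Hochberg adjustment over all 21218 clusters and a threshold of 0.05. The tissue difference and the difference of the genotype effects came from a fit of all 12 arrays, with no mouse term. The fits were run on simulated data with independent noise, as a check of the code. That check does not show how small a change in the members could be seen. Groups were taken from the genotype and tissue labels. The members and the 19 further gene lists (208 symbols, 192 measured) were chosen with earlier results of these data known.

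All 30 members are accounted for. Precursor and committed genes, *Mag*, *Mog*, *Mobp*, *Cnp*, *Cldn11*, *Mal* and members with an unadjusted p under 0.05 or without overlap are given per hippocampus array, the others by range, and of each list the 2 largest changes in hippocampus. Other genes were named after their values were seen. The labels do not state that the arrays of 1 group are separate mice, so p-values measure only the spread between these samples, which may be technical. Alternatives were another shrinkage, an analysis of variance without moderation, a filter on dim clusters, a repeated quantile normalization, tests over all clusters, labelled sex, array weights, the array code number, a joint fit, leaving out each array, and leaving out D09 and F09.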

Additional observations from a re-analysis of the deposited data

How the results depend on the processing

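No member passed the threshold for genotype in either tissue, or for the difference between tissues, under any alternative, including each of those that leaves out 1 array. In hippocampus the lowest limma adjusted p of a member over all alternatives was 0.665, for *Olig2*, and the largest change 0.40 in size, for *Aspa*. The hippocampus changes of 10 members kept their direction throughout (*Pdgfra*, *Cspg4*, *Olig2*, *Cldn11*, *Ermn*, *Opalin*, *Gpr37*, *Trf*, *Apod* and *Qdpr*), and 59 of 448 combinations of member and alternative changed sign. *Olig2* ranged from -0.34 to -0.20, *Pdgfra* from -0.17 to -0.12 and *Qdpr* from -0.25 to -0.08, the last without G07. In ileum 42 of 406 combinations changed sign. The tissue counts of 24 higher and 2 lower were the same under every alternative run for them, which did not include the code number as a block, the 4 arrays of code 07 or the joint fit. The lowest-mean cluster could only give the same values, since each measured member has 1 cluster of its own symbol.

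The count of all clusters lower or higher in FIRE -/- hippocampus, 95 in the main setting, was 25 in the analysis of variance without moderation, 34 with only the 4 arrays of code 07, 41 in the joint fit and between 72 and 93 with 1 array left out. The precursor median of -0.0947 was -0.0633 with array weights, and ran from -0.1247 without E07 to -0.0569 without F07. The committed median of 0.0257 ran from -0.0877 without B09 to 0.0823 without A09, and the mature median of 0.0425 from -0.0286 without B09 to 0.0887 without H07. With the code number as a block these medians were -0.0999, -0.0066 and -0.0463, since only H07 then links the genotypes. The cause of these shifts was not tested. No paired analysis was possible because the labels give no shared replicate numbers. Signal near the lower end of the scale, as for *Ermn* and *Opalin* in ileum, limits what a difference there can show.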

Other observations

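A list of genes known to rise in oligodendrocytes after injury or in disease, 6 measured of 8, held 3 genes that were higher on every FIRE -/- hippocampus array, where 4.46% of all clusters were, and none passed the test. *Klk6*, which encodes a protease of oligodendrocytes, was at 5.96, 6.77 and 5.13 in FIRE -/- against 4.92, 4.98 and 4.65 in FIRE +/+ hippocampus, a change of 1.11 log2 units (SE 0.36, limma adjusted p = 0.774). *Serpina3n*, a protease inhibitor gene that reactive astrocytes also express, was at 10.16, 10.55 and 10.25 in FIRE -/- against 9.98, 9.70 and 9.39 in FIRE +/+ hippocampus (log2 fold change 0.63, limma adjusted p = 0.510). *Il33*, a cytokine gene of oligodendrocytes and astrocytes, had a change of 0.23 log2 units (limma adjusted p = 0.992), and the other 3 overlapped. *Gfap*, the intermediate filament gene of astrocytes, had one of 0.56 on the same arrays (limma adjusted p = 0.142), and its relation to these genes was not tested. B09 had the highest value of the 6 hippocampus arrays for 4 of the 6 injury genes, as for 14 of the 28 lineage genes.

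The cholesterol synthesis genes held 4 that were higher on every FIRE -/- hippocampus array, *Idi1*, *Hmgcs1*, *Nsdhl* and *Sc5d*, where 4.46% of all clusters were, and none that was lower on every one. In ileum the same list had a median log2 fold change of -0.3016, with a median deviation of -0.10, -0.32 and -0.04 in FIRE -/- and 0.16, 0.09 and 0.25 in FIRE +/+ arrays, and no gene of it passed the test there. It held 6 genes that were lower on every FIRE -/- ileum array, beside 4.52% of all clusters, and none that was higher on every one. These were *Hmgcs1*, *Fdft1*, *Fdps*, *Mvd*, *Insig1* and *Srebf2*, with changes between -0.47 and -0.15 log2 units, each with a limma adjusted p of 0.999.

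Of the genes of other cell types in hippocampus, the largest changes among the microglial genes were those of *Csf1r* and of *Ctss*, a lysosomal protease gene, at -4.02. Among choroid plexus genes *Aqp1* was at 1.21 and *Slc4a5* at 1.15, among 7 endothelial genes *Ocln* at 0.20 and *Cldn5* at -0.18, and among 4 enteric glia genes *Foxd3* at 0.16 and *Entpd2* at -0.10. Among 6 smooth muscle genes *Actg2* was at 0.82 and *Cnn1* at 0.67, among gut epithelium genes *Muc2* at -0.25 and *Epcam* at -0.21, and among B cell genes *Cd79b* at -0.82 and *Ms4a1* at 0.23. Of these genes only the microglial ones passed the test, and the others had limma adjusted p-values of 0.992 except *Cd79b* at 0.303. F07 had the lowest value of all 10 choroid plexus genes, and A09 the highest of all 6 smooth muscle genes. The smooth muscle mean was 6.95 on A09 and between 5.34 and 6.01 on the other hippocampus arrays. Hippocampus means were 3.55 to 4.16 for gut epithelium and 2.75 to 3.05 for B cell genes. These lay below the array medians of 4.29 to 4.46, where a value may be background.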
